A study of Mus musculus with 15 samples.

Results

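Globin transcripts were followed in red cell precursors that had been sorted by the surface marker TER119 from mouse fetal liver at stage E13.5. Of 35556 transcript clusters on the arrays, 7 carried the name of any of 9 listed globin genes in the platform annotation. The embryonic genes Hbb-y, Hbb-bh1 and Hba-x had 1 cluster each. The 6 adult genes had no cluster of their own: 2 clusters named Hba-a1 together with Hba-a2, and 2 clusters named Hbb-b1, Hbb-b2, Hbb-bs and Hbb-bt together. These adult clusters are given as such, since the arrays do not tell their genes apart. The members were chosen by gene name and not by a cut on signal, but with earlier results of these data known.

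The 15 samples were all on the FVB/NJ background, and TER119-positive cells had been collected with magnetic beads. There were 4 wildtype arrays, 4 from Klf8gt/gt embryos, which carry a gene trap in Klf8 (Klf8-trap arrays), 3 from Klf3-/- embryos (arrays labelled Klf3-null), and 4 from Klf3-/- Klf8gt/gt embryos (doubly mutant arrays). The study compared loss of each factor alone with loss of both. The submitters matched litters where they could, but the labels name no litter for any array and do not say that each array is its own embryo. The spread behind every p-value here is thus that of these samples and may be technical in part.

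A haemoglobin tetramer joins alpha-like chains and beta-like chains, which in the mouse are encoded in separate gene clusters, each with embryonic genes ahead of adult ones. Primitive red cells, which arise in the yolk sac and circulate in the embryo, make zeta globin (Hba-x) and the beta-like chains epsilon-y (Hbb-y) and beta-h1 (Hbb-bh1). Definitive red cells, made in the fetal liver at this stage, use the adult genes. KLF1 activates erythroid genes through CACCC-type sequences near their start sites, and KLF3 and KLF8 are related repressors that bind the same kind of sequence and recruit the corepressor CtBP.

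The sequences upstream of the start sites show where such letters lie in the embryonic and adult genes, and are printed for this reason. They are the 250 bases before the start site in RefSeq on build GRCm38.p6, which held 6 of the 9 genes. Hbb-bh1, Hbb-b1 and Hbb-b2 had no such window, so nothing is said of their upstream sequence. Capitals mark CACCC. The motif was sought on both strands, and every match in the globin windows was on the strand of the gene.
Hbb-y, chr7:103853208-103853457, minus strand: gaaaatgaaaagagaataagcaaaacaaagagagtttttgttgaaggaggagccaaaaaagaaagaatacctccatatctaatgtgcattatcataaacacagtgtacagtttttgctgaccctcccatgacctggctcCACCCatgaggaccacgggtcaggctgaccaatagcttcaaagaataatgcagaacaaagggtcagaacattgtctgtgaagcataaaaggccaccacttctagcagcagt
Hba-x, chr11:32276350-32276599, plus strand: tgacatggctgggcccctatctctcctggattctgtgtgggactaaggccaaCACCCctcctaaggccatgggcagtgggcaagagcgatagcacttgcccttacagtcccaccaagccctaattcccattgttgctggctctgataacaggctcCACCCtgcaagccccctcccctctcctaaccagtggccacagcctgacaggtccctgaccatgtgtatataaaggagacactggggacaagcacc
Hba-a1, chr11:32283422-32283671, plus strand: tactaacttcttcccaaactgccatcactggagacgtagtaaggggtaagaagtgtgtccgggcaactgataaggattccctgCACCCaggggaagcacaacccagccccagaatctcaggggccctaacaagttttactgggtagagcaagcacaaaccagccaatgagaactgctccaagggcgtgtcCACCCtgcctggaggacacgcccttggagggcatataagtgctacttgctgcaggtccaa
Hbb-bs, chr7:103827929-103828178, minus strand: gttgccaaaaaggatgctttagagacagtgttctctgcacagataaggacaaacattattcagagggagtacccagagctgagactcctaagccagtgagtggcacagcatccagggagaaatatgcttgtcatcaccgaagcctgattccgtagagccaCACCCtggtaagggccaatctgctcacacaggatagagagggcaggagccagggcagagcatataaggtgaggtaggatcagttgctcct

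Every globin window held CACCC, beginning 111 bases before the start of Hbb-y, 198 and 95 before Hba-x, 167 and 60 before Hba-a1, and 90 before Hbb-bs. In Hbb-bt it was found 3 times. The same letters occurred in 52.0% of all 32851 upstream windows of this length, so their presence does not set the globins apart. GATAA, the core of the sequence bound by GATA factors, was in 6 of 6 globin windows and in 22.6% of all windows. CCAAT was in 5 of 6 (33.8% of all), with no match in Hba-x, and TATAA in 5 of 6 (22.8% of all), with none in Hbb-y. CCAAT and TATAA were also sought on both strands. The windows of Hba-a1 and Hba-a2 were identical at 247 of 247 bases aligned without gaps. A match describes letters and not a bound site.

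The targeted genes and the make-up of the samples were as follows. The Klf3 signal was higher, not lower, in the arrays labelled Klf3-null (11.32 ± 0.14, SD, n = 3) and in doubly mutant arrays (11.37 ± 0.28, n = 4) than in wildtype arrays (10.27 ± 0.17, n = 4). Where the probes lie relative to the deletion is not known here, so this signal cannot check the label. The Klf8 signal of wildtype and Klf8-trap arrays averaged 5.36 and 5.39, under every array's median (6.28 to 6.41), so the trap could not be checked there. In arrays labelled Klf3-null it averaged 8.71, and in doubly mutant arrays 7.29. Both groups were above wildtype in limma (adjusted p = 8.78e-07 and 4.76e-05). What this signal says about the trapped gene was not tested. Of 10 erythroid markers, 7 had a cluster of their own, and all 7 were above the array median on every array. Array correlations ran from 0.974 to 0.992. By Y-linked genes and Xist, all 4 wildtype arrays were male, as were 2 of 4 Klf8-trap, 2 of 4 doubly mutant and 1 of 3 arrays labelled Klf3-null.

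Hbb-bh1, the beta-h1 chain of primitive cells, varied most among genotypes. In wildtype arrays its log2 signal was 9.64, 10.61, 10.54 and 11.25 on replicates 1 to 4. In Klf8-trap arrays it was 9.78, 11.06, 10.99 and 11.43. Arrays labelled Klf3-null gave 9.88, 10.07 and 9.79, inside the wildtype range and below 3 of 4 wildtype arrays. In doubly mutant arrays it was 10.85, 12.15, 12.37 and 11.99. Thus 3 of 4 doubly mutant arrays lay above every wildtype and Klf8-trap array, and all 4 lay above every array labelled Klf3-null. The group means were 11.84 ± 0.68 in doubly mutant, 10.82 ± 0.71 in Klf8-trap, 10.51 ± 0.66 in wildtype and 9.92 ± 0.14 in labelled Klf3-null arrays. Klf8-trap and wildtype arrays, neighbours in that order, differed by less than their spread.

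Hba-x, the zeta chain, gave nearly the same picture from the other locus. Its signal was 10.70, 11.71, 12.00 and 12.59 in wildtype arrays. It was 10.74, 12.31, 12.17 and 12.38 in Klf8-trap arrays, and 11.67, 11.64 and 11.56 in arrays labelled Klf3-null. In doubly mutant arrays it was 12.42, 13.54, 13.18 and 13.32, with every array above the Klf8-trap and labelled Klf3-null groups and 3 of 4 above the wildtype group. The means were 13.11 ± 0.49, 11.90 ± 0.78, 11.75 ± 0.79 and 11.62 ± 0.06 in doubly mutant, Klf8-trap, wildtype and labelled Klf3-null arrays, and the last 3 means differed by less than the SD of wildtype arrays.

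Hbb-y, the epsilon-y chain, was far brighter on the arrays and moved over a narrower range. Wildtype arrays gave 13.47, 14.02, 14.14 and 14.30, Klf8-trap arrays 13.51, 14.14, 14.14 and 14.37, and arrays labelled Klf3-null 13.76, 13.89 and 13.79. Doubly mutant arrays gave 14.25, 14.51, 14.46 and 14.43. Here too 3 of 4 doubly mutant arrays exceeded every wildtype and every Klf8-trap array, and 4 of 4 exceeded every array labelled Klf3-null. Over all 15 arrays the signal of Hbb-y spanned 1.04 on the log2 scale, against 2.72 for Hbb-bh1 and 2.84 for Hba-x. At its best rank Hbb-y was number 12 among all clusters of an array, and the highest signal on each array was 14.81 to 14.89. Whether signals so close to the top still scale with RNA was not tested.

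**Figure D1:**
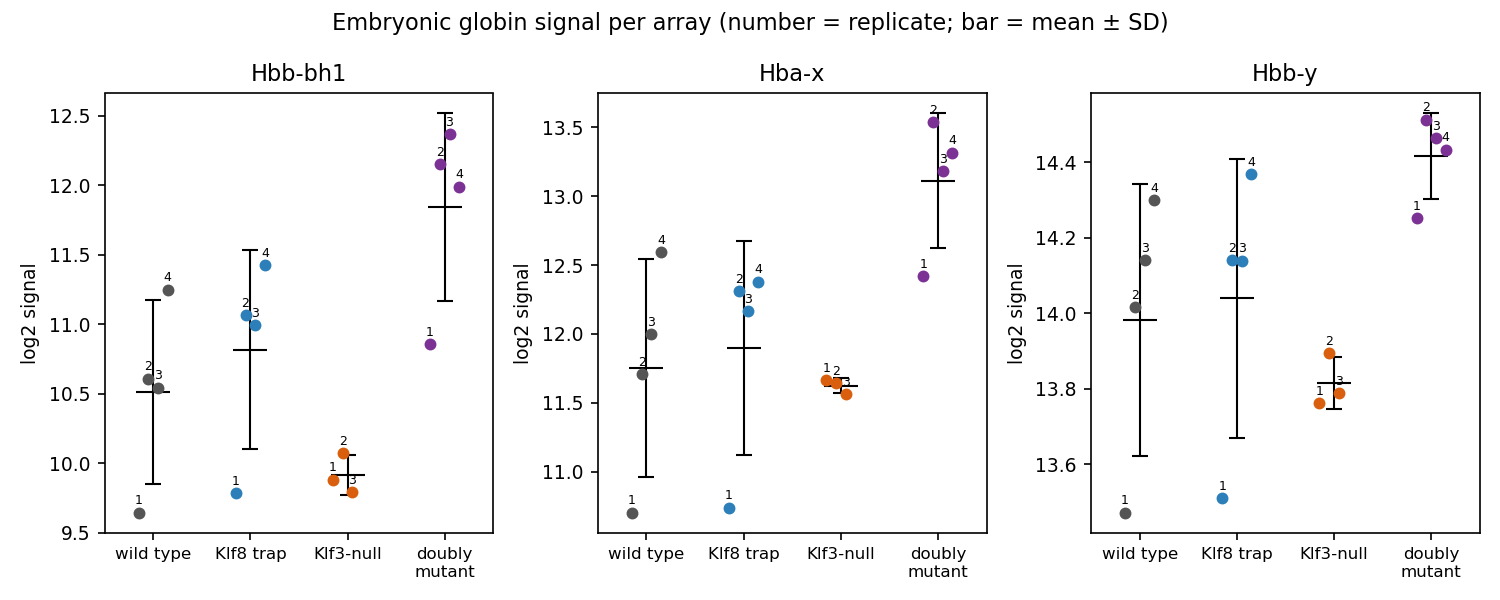
Log2 signal of Hbb-bh1, Hba-x and Hbb-y on each of 15 arrays, by genotype. Points are arrays numbered by replicate, and bars give the mean and SD; doubly mutant arrays 2, 3 and 4 lie above all others in each panel, and replicate 1 is the lowest wildtype, Klf8-trap and doubly mutant array.

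The comparison of doubly mutant with wildtype arrays asks how these genes differ when both mutant alleles are present. Hba-x differed by 1.36 ± 0.38 on the log2 scale (SE, n = 4 each; 2.57-fold) and Hbb-bh1 by 1.33 ± 0.38 (2.51-fold), with 95% intervals of 0.54 to 2.18 and 0.53 to 2.13. Hbb-y differed by 0.43 ± 0.17 (1.35-fold; interval 0.06 to 0.81), and by 0.26 without wildtype replicate 1. In limma, with Benjamini-Hochberg adjustment over 23410 clusters, 0 of 7 globin clusters passed the threshold of 0.05 (adjusted p = 0.0683 for Hba-x, 0.0698 for Hbb-bh1 and 0.202 for Hbb-y), against 3.3% of all clusters. At an unadjusted p under 0.05 there were 3 of 7, all embryonic. The share of all clusters at that unadjusted level was not counted, so this count is not read against a background. The median difference of the 3 embryonic clusters was 1.33 and that of all clusters -0.02. Exact two-sided permutation gave p = 0.0571 for each embryonic cluster, where 0.0286 is the smallest possible.

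That result turned on few arrays. Hba-x and Hbb-bh1 passed in 6 of 26 alternatives, among them leaving out doubly mutant replicate 1 (adjusted p = 0.0274 and 0.0115), wildtype replicate 4 (0.0309 and 0.0379) or Klf8-trap replicate 1 (0.0217 and 0.0302), all in limma. Each of these arrays was the lowest or highest of its group for both genes, so these passes give no separate support. Klf8-trap replicate 1 is in neither group compared. Without it the differences stayed at 1.36 and 1.33, and only the shared spread changed. With single arrays left out, the smallest differences were 1.01 for Hba-x and 1.04 for Hbb-bh1. Since all wildtype arrays were male, sex was added to the limma fit, and the differences were 1.43 for Hba-x and 1.26 for Hbb-bh1 (adjusted p = 0.113 and 0.161). Among male arrays alone they were 1.23 and 0.99 (adjusted p = 0.246 and 0.323).

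Against Klf8-trap arrays the doubly mutant arrays add loss of Klf3. Hba-x was higher in doubly mutant arrays by 1.21 ± 0.38 (2.32-fold), with all 4 arrays above all 4 Klf8-trap arrays (exact permutation p = 0.0286, the smallest possible, or 0.218 adjusted over 42 such tests). It was the only globin cluster of 7 whose arrays did not overlap, against 3.21% of all clusters higher in the same way. Hbb-bh1 differed by 1.02 ± 0.38 and Hbb-y by 0.38 ± 0.17. In limma 0 of 7 clusters passed (adjusted p = 0.0974, 0.153 and 0.266), against 3.35% of all clusters. Replicate numbers paired arrays in this comparison by the data. With the replicate number as a block 2 of 7 passed, Hba-x (adjusted p = 0.0122) and Hbb-bh1 (adjusted p = 0.0186), against 4.03% of all clusters in that blocked limma fit. That fit covered all genotypes, so its spread also came from wildtype arrays and those labelled Klf3-null. In the other comparisons the numbers were not shown to pair arrays (mean r over all clusters from -0.045 to 0.103). The pairing was itself read from these data, so the blocked passes give no separate support. In limma without a block, Hbb-bh1 passed when doubly mutant replicate 1 was left out (1.35, adjusted p = 0.0495). Without Klf8-trap replicate 1 the difference of Hbb-bh1 was 0.68 and that of Hbb-y 0.20. With sex added to the limma fit the differences were still 1.21 for Hba-x and 1.02 for Hbb-bh1 (adjusted p = 0.117 and 0.176). Among male arrays alone they were smaller, at 0.74 and 0.48. That subset kept doubly mutant replicate 1 and left out Klf8-trap replicate 1, each the lowest array of its group for both genes. Sex and the choice of arrays cannot be told apart there.

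Against arrays labelled Klf3-null the doubly mutant arrays add the Klf8 trap. The difference of Hbb-bh1 was the largest of any globin cluster in any comparison of 2 groups, at 1.92 ± 0.41 (3.80-fold; interval 1.06 to 2.79). The differences of Hba-x and Hbb-y were 1.49 ± 0.41 and 0.60 ± 0.19 (2.81-fold and 1.51-fold). At all 3 embryonic clusters every doubly mutant array was above every array labelled Klf3-null, against 4.5% of all clusters that were higher without overlap. Exact permutation gave p = 0.0571 for each, the smallest that 4 arrays against 3 allow. In limma 0 of 7 passed (adjusted p = 0.157 for Hba-x, 0.124 for Hbb-bh1 and 0.203 for Hbb-y), and 0.047% of all clusters did. Leaving out doubly mutant replicate 1 brought Hbb-bh1 past the threshold (2.25, adjusted p = 0.0165), as did leaving out replicate 4 of that group (1.88, adjusted p = 0.0478).

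For each single mutant the 95% intervals of the difference from wildtype included 0. In Klf8-trap arrays the differences were 0.31 ± 0.38 for Hbb-bh1 (interval -0.50 to 1.11), 0.15 ± 0.38 for Hba-x (-0.67 to 0.96) and 0.06 ± 0.17 for Hbb-y (-0.32 to 0.43). In arrays labelled Klf3-null the differences from wildtype arrays were -0.60 ± 0.41 for Hbb-bh1 (interval -1.46 to 0.27), -0.13 ± 0.41 for Hba-x (-1.01 to 0.76, turning to 0.15 without wildtype replicate 4) and -0.17 ± 0.19 for Hbb-y (-0.57 to 0.24). Leaving out single arrays moved these values to between 0.02 (without wildtype replicate 1) and 0.65 (without Klf8-trap replicate 1) for Hbb-bh1 in Klf8-trap arrays. In arrays labelled Klf3-null, leaving out wildtype replicate 4 gave -0.35 for Hbb-bh1 and -0.06 for Hbb-y, and leaving out wildtype replicate 1 gave -0.34 for Hbb-y. In limma 0 of 7 globin clusters passed in either comparison, also at an unadjusted p under 0.05, against 0% and 0.585% of all clusters. The intervals of Hbb-bh1 are wide, so the arrays do not show that a single loss leaves it at the wildtype level.

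The difference between both effects of Klf3 loss was tested as an interaction. For Hbb-bh1 the doubly mutant arrays differed from Klf8-trap arrays by 1.62 ± 0.56 more than arrays labelled Klf3-null differed from wildtype (interval 0.44 to 2.80; unadjusted p = 0.0105, adjusted p = 0.223 in limma). For Hba-x the interaction was 1.34 ± 0.56 (adjusted p = 0.302) and for Hbb-y 0.54 ± 0.26 (adjusted p = 0.352). None of 7 globin clusters passed, and 0.00427% of all clusters did. Averaged over both Klf8 states, Klf3 loss gave 0.54 ± 0.28 for Hba-x, 0.21 ± 0.28 for Hbb-bh1 and 0.10 ± 0.13 for Hbb-y, with 0 of 7 past the threshold in limma (0 at an unadjusted p under 0.05) against 2.38% of all clusters. Without Klf8-trap replicate 1 these averages were 0.35, 0.04 and 0.02. For Hbb-bh1 and Hbb-y they were 0.07 and 0.02 without wildtype replicate 1, and 0.34 and 0.16 without wildtype replicate 4. For Hbb-bh1 they were 0.38 and 0.13 without doubly mutant replicates 1 and 3, and for Hbb-y 0.16 without Klf8-trap replicate 4. The comparisons above share groups and are not independent of each other.

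The adult clusters were near the top of the scale on every array, and their signals spanned 0.11 to 0.20 over the 15 arrays. The 2 clusters for Hba-a1 and Hba-a2, the adult alpha chains, lay between 14.67 and 14.78 and between 14.65 and 14.77, and ranked 2 to 4 among all clusters on each array. The 2 clusters for the adult beta chains, Hbb-b1, Hbb-b2, Hbb-bs and Hbb-bt, lay between 14.51 and 14.70 and between 14.50 and 14.70, and ranked 4 to 11. Doubly mutant replicate 4 was the lowest array in each of the 4 clusters. Whether these signals still scale with RNA was not tested, so small differences at them do not show steady transcript levels.

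Differences between pairs of genotypes at the adult clusters ran from -0.05 to 0.02 on the log2 scale. Doubly mutant minus wildtype ranged from -0.04 to -0.02, Klf8-trap minus wildtype from -0.05 to -0.03 and labelled Klf3-null minus wildtype from -0.05 to -0.03. None passed in limma in any comparison (adjusted p from 0.746 to 0.99 between pairs of genotypes; 0 of 4 at an unadjusted p under 0.05). At the second Hba-a1 and Hba-a2 cluster all 4 Klf8-trap arrays lay below all wildtype arrays, and at both such clusters all 3 arrays labelled Klf3-null did. These non-overlapping shifts were at most -0.04, where 2.89% and 5.7% of all clusters were lower without overlap in the same comparisons. The limma SE of these differences was 0.06 to 0.07, and the SD within groups 0.03 to 0.06.

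**Figure D2:**
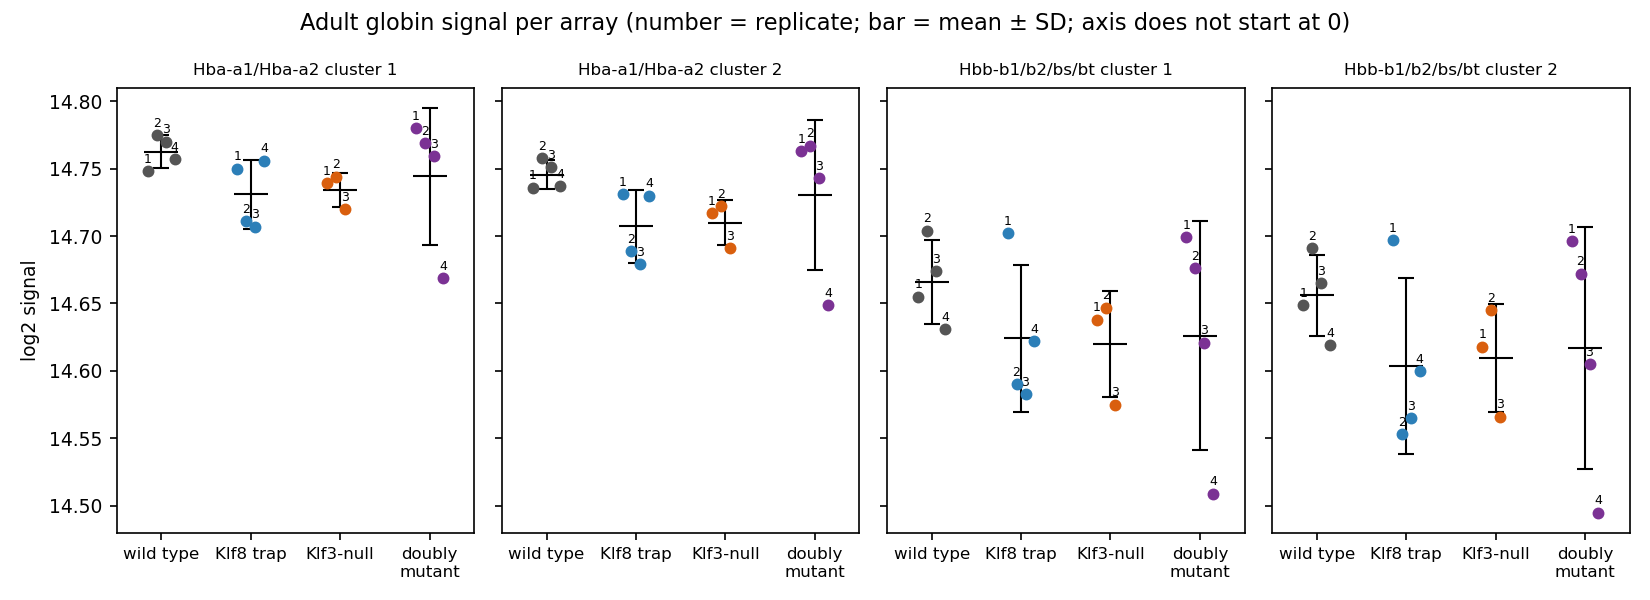
Log2 signal of the 4 adult globin clusters on each of 15 arrays, on an axis that does not start at 0. Points are arrays numbered by replicate, and bars give the mean and SD; all values lie between 14.50 and 14.78, and doubly mutant replicate 4 is the lowest array in each panel.

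The embryonic signal was then set against the adult signal on each array, as the mean log2 of the 3 embryonic clusters minus the mean of the 4 adult clusters. Its level compares different probes and is not a ratio of transcripts, so only changes between arrays are read. The value was -3.42, -2.62, -2.49 and -1.97 in wildtype arrays and -3.38, -2.13, -2.20 and -1.95 in Klf8-trap arrays. It was -2.91, -2.82 and -2.92 in arrays labelled Klf3-null, and -2.23, -1.32, -1.35 and -1.33 in doubly mutant arrays. Doubly mutant replicates 2 to 4 lay above every other array, and replicate 1 overlapped wildtype and Klf8-trap arrays. No test is given for this combined value.

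The group means of that difference were -1.56 ± 0.45 in doubly mutant (SD, n = 4), -2.42 ± 0.65 in Klf8-trap, -2.63 ± 0.60 in wildtype and -2.88 ± 0.06 in labelled Klf3-null arrays (n = 3). The doubly mutant mean was 1.07 above wildtype. How much of such a change the adult clusters could show is not known, since they lie near the top of the scale. At the alpha locus alone it was 1.38 above wildtype and at the beta locus alone 0.92. Within the beta locus, the Hbb-bh1 signal minus the Hbb-y signal was -2.58 ± 0.57 in doubly mutant and -3.47 ± 0.33 in wildtype arrays, with Hbb-y close to the top of the scale.

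**Figure D3:**
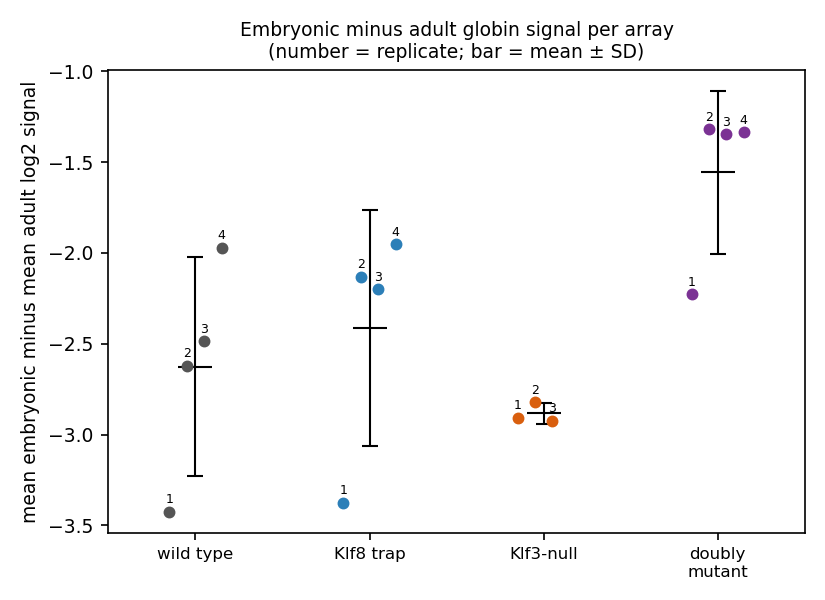
Mean log2 signal of the 3 embryonic clusters minus mean log2 signal of the 4 adult clusters on each array, by genotype. Points are arrays numbered by replicate, and bars give the mean and SD; 3 doubly mutant arrays sit between -1.35 and -1.32, and every array of the other groups is at or below -1.95.

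The 3 embryonic genes went up and down together from array to array. Over 15 arrays Pearson's r was 0.944 between Hbb-bh1 and Hba-x (Spearman's rho 0.954), 0.961 between Hba-x and Hbb-y (0.969) and 0.939 between Hbb-bh1 and Hbb-y (0.962). Of 23409 other clusters, the 2 most like each embryonic globin were the other embryonic globins. The relation also held within genotypes, with r = 0.940, 0.956 and 0.904 after the group means were taken out, and was 0.950, 0.926 and 0.937 without the 2 arrays farthest from the median of Hba-x or, for the last pair, of Hbb-bh1. Arrays share the chip design and its normalization, so these are descriptions with no test. With the adult clusters r ran from -0.365 to 0.043.

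Replicate 1 was the lowest array of its group for all 3 embryonic genes in wildtype, Klf8-trap and doubly mutant arrays. For Hba-x the gap to the next array was widest in the Klf8-trap group, at 10.74 against 12.17. In arrays labelled Klf3-null, replicate 1 was the lowest for Hbb-y alone. What the number stands for is not given in the labels.

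**Figure D4:**
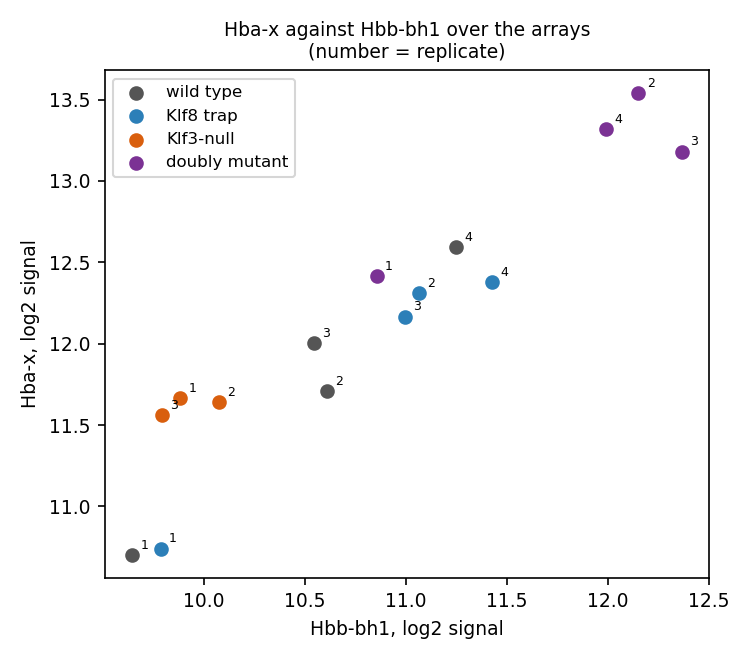
Log2 signal of Hba-x against Hbb-bh1 on 15 arrays, coloured by genotype and numbered by replicate. The arrays follow a single rising band (r = 0.944), with wildtype and Klf8-trap replicate 1 at its foot and doubly mutant replicates 2, 3 and 4 at its head.

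Other cell types and stages in the sort were measured beside these genes. TER119-positive samples of this age can hold primitive red cells, and in bulk RNA fewer cells of a type and less RNA per cell cannot be told apart. Aqp3 and Aqp8, water channels that mark primitive erythroid cells, did not pass in limma between doubly mutant and wildtype arrays (0.35 and 0.06; adjusted p = 0.496 and 0.812). Aqp8 averaged below the array medians in wildtype (6.11), doubly mutant (6.18) and Klf8-trap arrays (6.28), so it tells little there. The mean of both genes lay between 7.46 and 7.94 in doubly mutant and between 7.30 and 7.87 in wildtype arrays. It was highest, at 7.95 to 8.14, in arrays labelled Klf3-null, where the embryonic globins were lowest on average. Within genotypes it ran against the embryonic globin mean (r = -0.843), and its part in the result was not tested.

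Macrophage markers moved with the doubly mutant group. Their mean over 15 of 15 listed genes was 7.40 to 9.07 in doubly mutant, 8.64 to 9.16 in labelled Klf3-null, 8.76 to 9.32 in Klf8-trap and 9.22 to 9.58 in wildtype arrays. Of the 15, 6 fell in doubly mutant against wildtype arrays in limma and none rose (median -1.17), where 3.3% of all clusters were called. With this mean as a covariate the differences from wildtype were 1.90 for Hba-x and 1.99 for Hbb-bh1 (adjusted p = 0.113 and 0.0878 in limma). Without it they were 1.36 and 1.33. Every doubly mutant array lay below every wildtype array in the macrophage mean, so that fit extrapolates between the groups. The part of macrophages in the globin result was not tested. Hepatocyte markers (9 of 10 measured) had means of 11.43 to 12.59 in doubly mutant and 12.15 to 12.50 in wildtype arrays, with 0 of 9 past the threshold in limma (1 of 9 fell against Klf8-trap arrays, where 3.35% of all clusters were called and whose means were 12.51 to 13.15). Megakaryocyte markers (4 of 6 measured) had means of 9.42 to 10.85 and 9.86 to 10.19, with 0 of 4. Within genotypes the hepatocyte mean went with the embryonic globin mean (r = 0.679), and its part in the result was not tested.

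Erythroid and late maturation markers were given by the same lists. Of 7 erythroid markers 0 passed between doubly mutant and wildtype arrays in limma, with a median of -0.28. Of 9 late maturation genes 2 fell and none rose, where 3.3% of all clusters were called. These were Ypel4 (-1.28, adjusted p = 0.00628) and Trim58, a ubiquitin ligase of late erythroblasts (-0.98, adjusted p = 0.0367). The mean of this list was 10.29 to 11.25 in doubly mutant and 11.20 to 11.45 in wildtype arrays. Its part in the globin result was not tested.

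The other globin-like genes of the arrays did not follow the embryonic ones as a group. Of 9 listed globin-superfamily and chaperone genes, 7 had a cluster of their own. Hbq1a, a theta globin that lies downstream of Hba-a2, fell in doubly mutant against wildtype arrays (-1.03 ± 0.27; limma adjusted p = 0.0479). Its signal was 8.20, 7.99, 7.28 and 6.45 on doubly mutant replicates 1 to 4 and 8.43, 8.62, 8.67 and 8.33 in wildtype arrays. The call was kept in 10 of 26 alternatives (adjusted p from 0.00529 to 0.19), and among male arrays the difference was -0.42. It ended when any 1 of 11 arrays was left out: doubly mutant replicate 3, each wildtype array, each array labelled Klf3-null, or Klf8-trap replicates 2, 3 and 4 (-1.10 to -0.97). Hbq1b, its neighbour copy, gave -0.34 ± 0.24 (adjusted p = 0.504), and near-identical copies can share probes.

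Hbb-bh2, which lies between Hbb-bs and Hbb-bh1, was near or below the array medians. It gave 6.34, 6.68, 6.22 and 6.03 in doubly mutant and 5.64, 5.97, 6.05 and 5.91 in wildtype arrays, with 3 of 4 doubly mutant arrays above all wildtype arrays (limma adjusted p = 0.0929). No fold is given at this level. Myoglobin, neuroglobin, cytoglobin and androglobin (Mb, Ngb, Cygb and Adgb) differed by -0.03 to -0.08, with 0 of 4 past the threshold in limma.

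Genes known to act on the globin loci were counted from a list of 40, all measured. The list includes the targeted genes Klf3 and Klf8, whose alleles define the genotypes. Its counts in each comparison are thus not a result about the other regulators alone. Doubly mutant against wildtype arrays, 4 rose and 2 fell in limma, 6 of 40 against 3.3% of all clusters; the median of the list was -0.03. The 4 were the targeted genes Klf3 and Klf8, Ldb1, the bridging cofactor of GATA1 and TAL1 that links the locus control region to globin promoters (0.51 ± 0.07, adjusted p = 6.49e-04), and Nfix, a nuclear factor I protein (0.28 ± 0.07, adjusted p = 0.0345). The 2 were Klf1, the activator of adult beta globin (-0.41 ± 0.11, adjusted p = 0.0487), and Nfe2, a subunit of a factor that binds the locus control region (-0.61 ± 0.14, adjusted p = 0.0283).

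The calls of these regulators differed in how firmly they held. Ldb1 was past the threshold in 25 of 26 alternatives, missing it with the macrophage covariate (adjusted p = 0.056). Nfe2 passed in 18 of 26, Nfix in 9 and Klf1 in 8. The call of Nfe2 ended without doubly mutant replicate 3 or wildtype replicates 1, 2 or 3 (-0.62 to -0.57). That of Nfix ended without any 1 of 9 arrays: doubly mutant replicates 1, 3 and 4, labelled Klf3-null replicates 1 and 2, and each wildtype array (0.26 to 0.30). That of Klf1 ended without any 1 of 12: doubly mutant and Klf8-trap replicates 2, 3 and 4, wildtype replicates 1, 2 and 3, and each array labelled Klf3-null (-0.41 to -0.34).

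Bcl11a, Zbtb7a, Sox6 and Myb, known to act against embryonic or fetal globin expression, did not pass between doubly mutant and wildtype arrays. Bcl11a, which silences embryonic and fetal beta-like genes, gave 0.00 (-0.004 ± 0.142; adjusted p = 0.995), at 8.99 in both groups. Zbtb7a gave -0.46 ± 0.15 (adjusted p = 0.107), Sox6 -0.40 ± 0.15 (adjusted p = 0.185) and Myb 0.16 ± 0.13 (adjusted p = 0.572), all in limma. In arrays labelled Klf3-null against wildtype, 2 of 40 regulators rose and none fell, where 0.585% of all clusters were called; these were Klf3 and Klf8. Against Klf8-trap arrays 4 of 40 rose in doubly mutant arrays and none fell, where 3.35% of all clusters were called (Klf3, Klf8, Ldb1 and Nfix), and the call of Nfix ended without doubly mutant replicate 1 or Klf8-trap replicates 2 or 4 (0.26 to 0.29). Against arrays labelled Klf3-null only Klf8 passed, 1 of 40 where 0.047% of all clusters did, with a lower signal in doubly mutant arrays (-1.42 ± 0.22, adjusted p = 0.0265), and it lost its call without doubly mutant replicate 3 (-1.28) and without each array labelled Klf3-null (-1.34 to -1.57).

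The genes most like the embryonic globins were sought among 11867 clusters with a single symbol and a signal above the median cluster. By Pearson's r with the mean of the 3 embryonic clusters over 15 arrays, the highest were Kdm6b, a histone H3K27 demethylase (0.899), Vps13c, a lipid transfer protein (0.899), Zfp652, a zinc finger protein (0.884), Bcar1, a signalling adaptor (0.883) and Sptbn1, a spectrin (0.874). Kdm6b went from 8.14 in wildtype to 8.71 in doubly mutant arrays, and Sptbn1 from 10.07 to 10.76. The lowest were Psmc4, a proteasome ATPase (-0.910), Polr2l, a subunit of RNA polymerases (-0.898), Nubp2, of cytosolic iron-sulfur assembly (-0.897), Timm13, of mitochondrial import (-0.896) and Bloc1s4 (-0.893). Within genotypes r was between 0.757 and 0.829 for the first 5 and between -0.739 and -0.894 for the last 5. These genes were picked by r over the same arrays, so such values and the shifts above follow in part from that choice. The embryonic globins were closer to each other than to any of these genes.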

How the data were processed

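The deposited table held log2 signals, 1 per transcript cluster and array, made by the authors. The submitters' processing notes name Partek and RMA without versions; other steps and the genome build are not given in the sources used here. Columns of 15 of 15 samples were used. Of 35556 clusters, 21789 had 1 symbol, 1621 several and 12146 none in the platform annotation of GEO; tests ran over the 23410 with a symbol. The deposited values were not changed. Using limma 3.58.1 (R 4.3.3), each cluster was modelled over the 15 arrays by its genotype means, followed by eBayes without a trend, two-sided, with Benjamini-Hochberg adjustment and a threshold of 0.05. The procedure was tested on simulated data. Where a listed gene had several clusters, the brightest stood for it. Precision is limited by how many arrays there are: the median SE was 0.11 for 2 groups of 4. Single clusters were compared by exact two-sided permutation (SciPy 1.17.1), adjusted over 42 tests.

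The members and lists were chosen with earlier results of these data known. Genes were named by rule: the globin clusters, Klf3 and Klf8, list members past the threshold, and the 5 genes at each end of the likeness ranking, without predicted genes. Hbb-bh2, Hbq1b, Mb, Ngb, Cygb, Adgb, Aqp3, Aqp8, and the 4 named regulators that did not pass were added by hand from the same lists. Alternatives covered the replicate block, each array left out, fits of 2 groups, trend, array weights, the clusters tested, quantile normalization, sex, macrophage signal and both arrays that stood apart. Same-numbered doubly mutant and Klf8-trap arrays deviated together over all clusters (r from 0.114 to 0.534, mean 0.247), so their numbers were taken to pair them; this comes from the data and not from the labels. In no other comparison did every pair exceed 0.1.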

Additional observations from a re-analysis of the deposited data

Results flagged for a closer look

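Among 24 groups of 4 arrays examined over 8 quantities, 2 arrays stood far from the rest of their group by Dixon's criterion, which chance meets in about 1 of 20 groups. Klf8-trap replicate 1 had a Hba-x signal of 10.74, while the other 3 arrays of its group lay between 12.17 and 12.38. Doubly mutant replicate 1 had an embryonic minus adult value of -2.23, while the other 3 lay between -1.35 and -1.32.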

How the results depend on the processing

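Of 21 embryonic results (3 clusters in 7 comparisons), 17 kept their direction in all alternatives run, and 10 also their side of the threshold. The number of globin clusters past the threshold, 0 throughout the analysis as reported, was 2 of 7 between doubly mutant and wildtype arrays with the replicate block, with array weights and without both arrays that stand apart, and 0 to 2 with single arrays left out. Between doubly mutant arrays and those labelled Klf3-null it was 1 with the replicate block, 1 with array weights, 2 without both arrays that stand apart and 0 to 1 with single arrays left out. Between doubly mutant and Klf8-trap arrays it was 2 with the replicate block and 0 to 1 with single arrays left out. For the interaction it was 1 without both arrays that stand apart (Hbb-bh1, adjusted p = 0.039 in limma). Both arrays were set apart by their own low embryonic globin values. Counts made without them thus rest on a choice by the tested values and give no separate support. The replicate block changed no other globin call. It was fitted over all genotypes, but outside the doubly mutant and Klf8-trap arrays the numbers were not shown to pair samples. Counts made with the block thus give no separate support either. Differences near 0 changed sign: Hba-x in arrays labelled Klf3-null minus wildtype was 0.042 with the replicate block, 0.057 with the macrophage covariate and -0.48 to 0.15 with single arrays left out. In Klf8-trap minus wildtype arrays, leaving out single arrays gave 0.02 to 0.65 for Hbb-bh1, -0.20 to 0.53 for Hba-x and -0.11 to 0.23 for Hbb-y. Averaged Klf3 loss gave -0.12 for Hbb-bh1 among male arrays. The 7 differences of the embryonic minus adult value stayed within 1 pooled SD (0.52) of the value as reported in all alternatives run. That bound is wider than the smaller differences themselves. Klf8-trap minus wildtype (0.21) ran from -0.055 to 0.53 and kept its direction in 18 of 19 alternatives. Labelled Klf3-null minus wildtype (-0.26) ran from -0.52 to -0.04. Counts over all clusters moved by more than 1.5 times in every comparison, from 772 to between 273 and 2260 for doubly mutant minus wildtype. For the other comparisons they went from 785 to between 188 and 1777 (Klf8-trap), from 11 to between 0 and 484 (labelled Klf3-null), from 137 to between 40 and 597 (labelled Klf3-null minus wildtype), from 0 to as many as 4081 (Klf8-trap minus wildtype), from 557 to between 332 and 868 (averaged Klf3 loss) and from 1 to between 0 and 1183 (interaction). The cause was not tested. Signal over background could not be read, since the values carry no detection call.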
